A study of Mus musculus with 8 samples.

Results

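DNA damage repair genes were followed in mammary tumors of MMTV-PyMT mice with and without miR-21, untreated or irradiated. The 35 listed genes carry out homologous recombination, the Fanconi anemia pathway, damage checkpoint signaling, end joining, single-strand break repair, mismatch repair or direct reversal of damaged bases, and they were sorted into these 7 roles from textbook knowledge. A gene was measured where at least 1 probe set of the array was annotated with its symbol alone, and the log2 levels of these probe sets were averaged. Of the listed genes, 34 were measured, out of 23152 genes in all. Xrcc2 had no such probe set and was left out, and Rad51b was found under its older symbol Rad51l1.

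The tumors were those of miR-21+/+;MMTV-PyMT animals, the controls, or of animals with the genotype miR-21-/-;MMTV-PyMT. All carried the polyoma middle T oncogene under the MMTV promoter, which is active mainly in mammary epithelium, and the deletion of miR-21 was not limited to a cell type, so that the other cells of these tumors lacked miR-21 as well. Each genotype was measured untreated and after radiation treatment (RT), with 2 Affymetrix Mouse Gene 2.0 ST arrays in each of the 4 groups. For the irradiated tumors, the sample labels place irradiation at a tumor volume of 1000 mm3 and collection at 2000 mm3 and give a dose of 8 Gy. They give no volume for the untreated tumors, so that size at collection may differ between treatments. The methods of the study give a lower dose, and its sources do not agree on the time of collection. Age, and whether the arrays of a group came from separate mice, are not stated in the labels, so that p-values measure the spread between these arrays, which may be technical.

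Cells mend broken DNA in several ways. Homologous recombination copies the intact sister chromatid after the ends have been trimmed, needs proteins such as BRCA1 and BRCA2, and acts in S and G2 phase, when a sister is present. End joining ligates the ends directly and acts throughout the cell cycle, mismatch repair removes replication errors, and MGMT takes the alkyl group off a damaged guanine in a single step that consumes the protein. In mammary tissue, loss of BRCA1 or BRCA2 is known for predisposing to tumors. miR-21 is a microRNA that pairs with target mRNAs through its seed and lowers their output.

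The sequence that the mutant mice lack is shown first, as the mouse miR-21a-5p of RefSeq (GRCm38.p6, chr11:86584120-86584141, minus strand). The capitals mark the seed, bases 2 to 8.
miR-21a-5p: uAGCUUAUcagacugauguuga
The 1 probe set that carries the host transcript of miR-21, shared by Mir21 and Vmp1, checked the genotype labels only in part, since it is also assigned to a gene that the mutant mice keep. It had log2 levels of 2.34 to 2.5 in untreated miR-21+/+ tumors, 2.75 to 3.08 in irradiated miR-21+/+ tumors, 2 to 2.02 in untreated miR-21-/- tumors and 1.69 to 1.97 in irradiated miR-21-/- tumors, and every miR-21-/- array was below every miR-21+/+ array. All of these levels were low, below the median gene levels of the arrays (5.08 to 5.16), which limits the check further.

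Promoters are shown for 4 repair genes because these genes carry the patterns described below: Brca1 and Rad54l had the lowest log2 fold changes in untreated miR-21-/- against untreated miR-21+/+ tumors, Bard1 is the partner of Brca1, and Mgmt moved the other way. They run from 250 bases before to 20 bases after the RefSeq start (GRCm38.p6), Brca1 at chr11:101551936-101552205 on the minus strand, Rad54l at chr4:116123671-116123940 on the minus strand, Bard1 at chr1:71102953-71103222 on the minus strand and Mgmt at chr7:136894336-136894605 on the plus strand. The build behind the array annotation is not given in the sources used here. The capitals mark matches to motifs of cell cycle promoters, CCAAT in Brca1 and Rad54l and, in Bard1, the CHR motif TTTGAA followed by the E2F motif TTTCCCGC.
Brca1: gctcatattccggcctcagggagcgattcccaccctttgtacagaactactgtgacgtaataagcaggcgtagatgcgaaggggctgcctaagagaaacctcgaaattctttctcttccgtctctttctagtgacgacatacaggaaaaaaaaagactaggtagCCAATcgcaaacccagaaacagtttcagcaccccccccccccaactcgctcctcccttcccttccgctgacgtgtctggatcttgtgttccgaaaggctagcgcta
Rad54l: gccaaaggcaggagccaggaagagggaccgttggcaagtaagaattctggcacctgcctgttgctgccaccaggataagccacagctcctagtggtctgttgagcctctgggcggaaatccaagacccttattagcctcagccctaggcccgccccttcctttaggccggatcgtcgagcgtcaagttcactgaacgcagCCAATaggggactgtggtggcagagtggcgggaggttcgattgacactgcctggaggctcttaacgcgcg
Bard1: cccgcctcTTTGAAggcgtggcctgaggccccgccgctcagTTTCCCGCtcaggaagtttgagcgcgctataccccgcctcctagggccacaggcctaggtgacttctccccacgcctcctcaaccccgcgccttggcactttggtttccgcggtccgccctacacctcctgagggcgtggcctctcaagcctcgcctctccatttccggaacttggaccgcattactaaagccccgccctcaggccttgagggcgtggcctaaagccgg
Mgmt: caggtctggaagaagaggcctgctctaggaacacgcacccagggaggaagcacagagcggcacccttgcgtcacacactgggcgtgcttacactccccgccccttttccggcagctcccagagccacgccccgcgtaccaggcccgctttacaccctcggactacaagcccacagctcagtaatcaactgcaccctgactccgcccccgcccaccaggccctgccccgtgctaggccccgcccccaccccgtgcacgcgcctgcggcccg
The CCAAT match began at position -86 from the start in Brca1 and at -50 in Rad54l. In Bard1 the CHR match began at -242 and the E2F match at -209. No match lay in the Mgmt window, which says only that these letters are not in it. Of the 34 measured genes, 28 had a promoter in the RefSeq table. An E2F motif (TTTCCCGC, TTTCGCGC, TTTGCCGC or TTTGGCGC, on either strand, none of which holds CCAAT or TTTGAA) lay within 250 bases before to 50 bases after the start in 6 of the 28 genes (21.4%), against 2.6% of 27025 genes. These genes were Brca2, Bard1, Rad51c, Chek2, Xrcc6 and Msh6. CCAAT on either strand was in 17 of 28 (60.7%), against 41.1% of all genes, and TTTGAA in 2 of 28 (7.1%), against 20.2%. The matches describe letters and are not evidence of binding.

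The arrays had median gene levels of 5.08 to 5.16 on the log2 scale, and precision is set by how few arrays there were. The epithelial markers were high in every array, with log2 levels of 8.51 to 10.51 for Krt8 and 8.16 to 9.86 for Epcam. The first irradiated miR-21-/- array stood apart. Its mean over 12 adipocyte markers was 5.41 above the mean of all arrays, against -1.14 to -0.03 in the other 7, and all 12 markers were highest in it, while its mean over 12 epithelial markers was -1.19 against -0.07 to 0.6. Its correlation with the others over all genes was 0.898 to 0.915, against 0.955 to 0.987 in the 21 other pairs. Where leaving it out turned the direction of a value given for irradiated miR-21-/- tumors, moved it by over 1.5 times or changed a call, the value without it is given as well. In bulk tumor RNA, fewer cells of a type and less RNA per cell cannot be told apart.

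Most repair genes were highest in untreated miR-21+/+ tumors. The mean of this group was the highest of the 4 for 27 of the 34 genes, and the mean of irradiated miR-21-/- tumors was the lowest for 22. Among single arrays, the first untreated miR-21+/+ array was the highest for 25 genes and the first irradiated miR-21-/- array, the one rich in adipocyte markers, was the lowest for 16. The exceptions at the upper end were Mgmt, Nbn and Xrcc1, with the highest mean in irradiated miR-21-/- tumors, and 4 of the 6 end joining genes. Without the array rich in adipocyte markers, untreated miR-21+/+ tumors had the highest mean for 26 genes and irradiated miR-21-/- tumors the lowest for 19. The same counts were not made over all genes, so that they cannot be called particular to the repair genes.

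**Figure D1:**
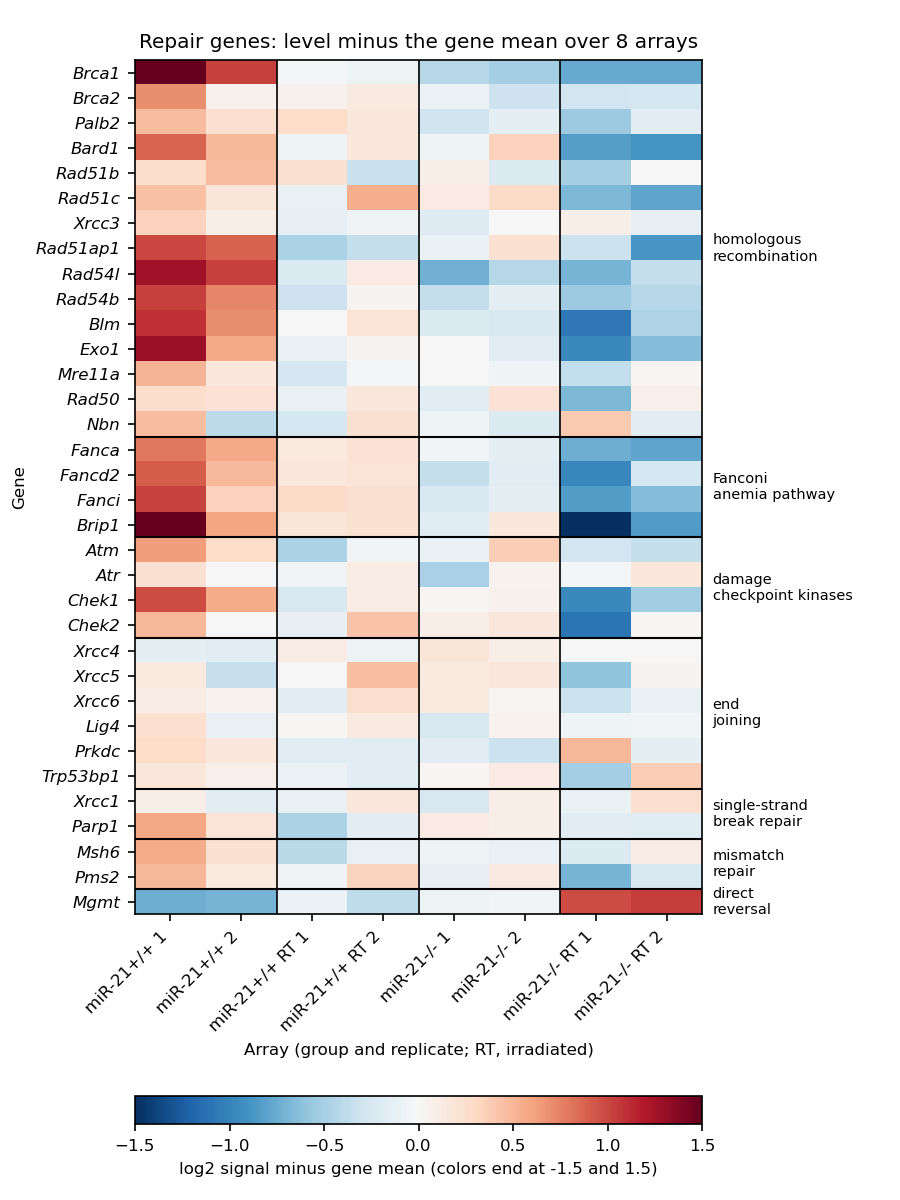
Log2 level of each of the 34 measured repair genes (rows, by role) in each of the 8 arrays (columns, by group), as the difference from the gene's mean over the arrays. Homologous recombination and Fanconi anemia genes are mostly above their mean in the untreated miR-21+/+ arrays and below it in the irradiated miR-21-/- arrays, and Mgmt runs the opposite way.

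The question of the genotype was put to untreated tumors first, miR-21-/- against miR-21+/+. Calls used the thresholds of the study, at least a 2-fold change together with a limma p below 0.05 before adjustment, and separately the Benjamini-Hochberg adjusted p over all 23152 genes, again below 0.05. Brca1, Rad54l, Rad54b, Blm, Exo1 and Brip1 fell past the thresholds of the study and no repair gene rose, so that 6 of 34 were lower, against 2.16% of all genes lower and 0.955% higher. At the adjusted threshold Brca1 and Rad54l passed, 2 of 34, against 0.32% of all genes lower. In 22 of 34 genes both miR-21-/- arrays were below both miR-21+/+ arrays, and in 2 both were above, against 24.4% and 27.7% of all genes. The median log2 fold change was -0.39 over the repair genes and 0.03 over all genes. An exact permutation test of 2 arrays against 2 cannot go below a two-sided p of 0.333, so only the fit across all genes gives p-values here.

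Leaving out the first untreated miR-21+/+ array left 2 genes past the thresholds of the study and none at the adjusted threshold, and the median over the repair genes was then -0.24. Both adjusted calls were also lost without the second untreated miR-21+/+ array, without either irradiated miR-21+/+ array and without either untreated miR-21-/- array, whereas 8 genes passed without either irradiated miR-21-/- array, all lower, against 3.23% of all genes.

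Radiation was compared next within miR-21+/+ tumors, against the same untreated miR-21+/+ arrays as above, so that the comparisons are not independent. Rad51ap1, Brca1, Rad54l and Rad54b fell past the thresholds of the study in irradiated against untreated miR-21+/+ tumors, 4 of 34 against 0.942% of all genes, and none rose, against 1.16%. No repair gene passed the adjusted threshold in limma, at which 0.108% of all genes were lower and 0.104% higher, while 13 repair genes were lower and 1 higher at an unadjusted p under 0.05 (4.63% and 4.25% of all genes). Without moderation of the variances the adjusted count was 0 as well, on the 4 arrays of the comparison alone it was 2, and with array weights it was 4. Of all 23152 genes, 96 were lower and 133 higher at that threshold on the 4 arrays, and 153 and 170 with array weights. The median log2 fold change was -0.40, against 0.00 over all genes, and was -0.25 without the first untreated miR-21+/+ array, which left 3 genes past the thresholds of the study. Without the second untreated miR-21+/+ array 8 genes passed them, all lower, against 1.71% of all genes. The irradiated arrays of 21 genes were lower without overlap and those of 2 were higher, against 22.3% and 22.4% of all genes.

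Between the irradiated tumors, the genotypes differed most in Mgmt and Brip1. Mgmt rose and Brip1 fell past the thresholds of the study in miR-21-/- against miR-21+/+ tumors, 1 gene in each direction, against 1.33% of all genes higher and 2.63% lower. Mgmt was the 1 repair gene past the adjusted threshold, at which 0.0734% of all genes were higher and 0.333% lower. The arrays of 16 genes were lower without overlap and those of 2 higher, against 22.6% and 18.9% of all genes. The median log2 fold change was -0.35, against 0.00 over all genes. Leaving out the array rich in adipocyte markers turned the sign of 5 of the 34 differences and moved 13 others by over 1.5 times. The median was then -0.16, and Rad51c joined the genes past the thresholds of the study with -1.01. Leaving out the second irradiated miR-21-/- array instead, which leaves the adipocyte-rich array to stand for its group, gave 6 repair genes past the thresholds of the study, 5 lower and 1 higher, against 5.63% and 6.21% of all genes, and 9 at the adjusted threshold, where 8.11% of all genes were lower and 7.91% higher. There were 4 past the thresholds of the study without the first irradiated miR-21+/+ array.

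In miR-21-/- tumors, irradiated against untreated, Brip1 fell and Mgmt rose past the thresholds of the study, against 1.33% of all genes lower and 1.7% higher. None passed the adjusted threshold in limma, at which 0.013% of all genes were lower and 0.0% higher, and at an unadjusted p under 0.05 there were 8 repair genes lower and 1 higher, against 6.45% and 4.55% of all genes. Without moderation of the variances the adjusted count was also 0. The arrays of 18 genes were lower without overlap and those of 2 were higher, against 23.8% and 16.4% of all genes. The median log2 fold change was -0.28, against -0.04 over all genes, and -0.11 without the adipocyte-rich array, where 7 of the 34 differences turned sign, Brip1 no longer passed with -0.84 and Bard1 passed with -1.03. The count of genes past the thresholds of the study was 4 without the first and 1 without the second untreated miR-21-/- array.

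**Figure D2:**
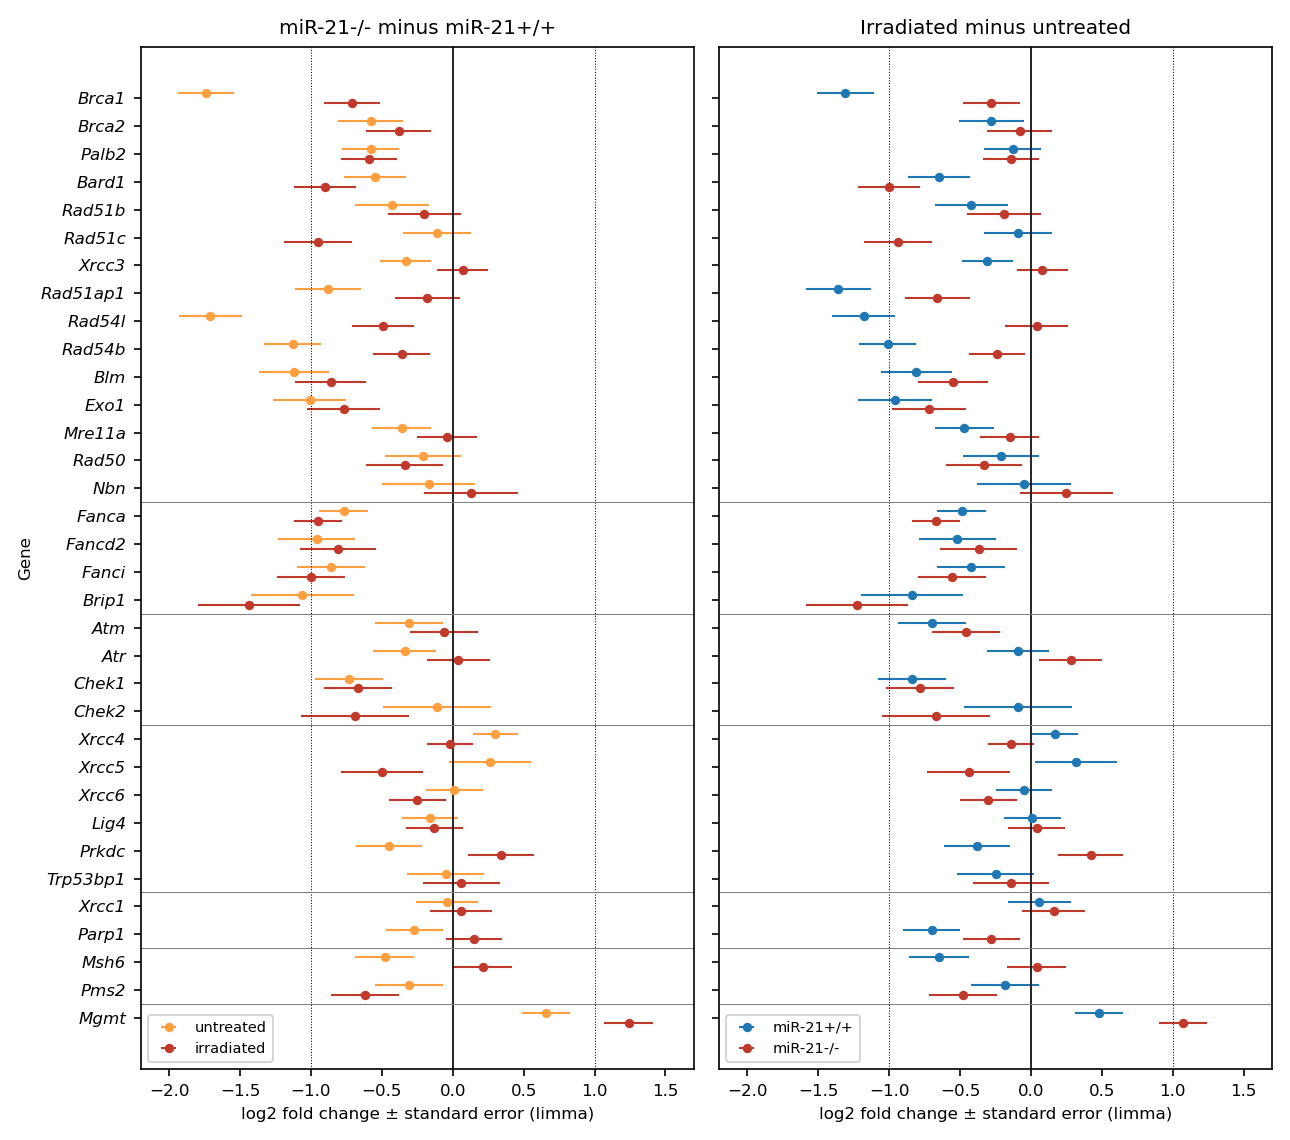
Log2 fold change of each repair gene in the 4 comparisons between groups (points), with the standard error of the limma fit (bars), ordered by role; dotted lines mark a fold change of 2. Brca1 and Rad54l lie furthest to the lower side for miR-21-/- against miR-21+/+ untreated tumors, end joining genes lie around 0, and Mgmt is the gene above 1 in both comparisons that involve irradiated miR-21-/- tumors.

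Brca1, which directs broken ends toward recombination, read 6.59 and 6.11 in the untreated miR-21+/+ arrays, 5.07 and 5.01 in the irradiated miR-21+/+ arrays, 4.66 and 4.57 in the untreated miR-21-/- arrays, and 4.33 in each irradiated miR-21-/- array. No groups overlapped, and the order ran from untreated miR-21+/+ down to irradiated miR-21-/- tumors. The log2 difference between genotypes was -1.74 in untreated tumors (95% interval -2.2 to -1.27, adjusted p = 0.028), against -0.71 in irradiated tumors (adjusted p = 0.195). Radiation went with -1.31 in miR-21+/+ tumors (adjusted p = 0.0651), against -0.28 in miR-21-/- tumors (adjusted p = 0.619). The interval of the last spanned 0 (-0.75 to 0.18). Of its 22 probe sets, 21 were lower in miR-21-/- than in miR-21+/+ untreated tumors.

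Bard1, Palb2 and Brca2 stand next to Brca1, as its dimer partner, the bridge between BRCA1 and BRCA2, and the loader of the recombinase onto single-stranded DNA. None passed either threshold with all 8 arrays in the fit. Bard1 was lowest in the irradiated miR-21-/- arrays, at 3.59 and 3.52 against 4.34 to 5.29 in the other 6. The log2 difference from irradiated miR-21+/+ tumors was -0.90 (adjusted p = 0.144). From untreated miR-21-/- tumors it was -1.0 (adjusted p = 0.232), or -1.03 without the adipocyte-rich array. Averaged over both treatments, the genotype difference of Bard1 was -0.72, or -0.74 without that array. Palb2 lay at 4.59 to 4.99 in the 4 miR-21-/- arrays and 5.31 to 5.62 in the 4 miR-21+/+ arrays, without overlap, with differences of -0.58 in untreated and -0.59 in irradiated tumors (adjusted p = 0.267 and 0.263). Brca2 differed by -0.58 between genotypes in untreated tumors (adjusted p = 0.352).

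Rad54l, a motor protein that drives strand invasion, read 6.25 and 6.02 in the untreated miR-21+/+ arrays, 4.78 and 5.12 in the irradiated miR-21+/+ arrays, 4.27 and 4.57 in the untreated miR-21-/- arrays, and 4.30 and 4.63 in the irradiated miR-21-/- arrays. The untreated miR-21+/+ arrays were far above the other 6, and the miR-21-/- groups overlapped. The genotype difference was -1.71 in untreated tumors (95% interval -2.22 to -1.21, adjusted p = 0.0375), against -0.49 in irradiated tumors (adjusted p = 0.382), or -0.32 without the adipocyte-rich array. Radiation went with -1.18 in miR-21+/+ tumors (adjusted p = 0.116), against 0.04 in miR-21-/- tumors, or 0.21 without that array. All 23 of its probe sets were lower in untreated miR-21-/- than in untreated miR-21+/+ tumors.

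Rad54b, its paralog, read 6.01 and 5.71 in the untreated miR-21+/+ arrays, 4.67 and 5.02 in the irradiated miR-21+/+ arrays, 4.62 and 4.83 in the untreated miR-21-/- arrays, and 4.43 and 4.55 in the irradiated miR-21-/- arrays. Again the untreated miR-21+/+ arrays were above all others. The genotype difference in untreated tumors was -1.13 (adjusted p = 0.0716) and the radiation difference in miR-21+/+ tumors -1.01 (adjusted p = 0.151), and neither passed the thresholds of the study without the first untreated miR-21+/+ array.

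Rad51ap1, which stimulates the recombinase, was the gene with the largest radiation difference among the repair genes in miR-21+/+ tumors. It read 5.84 and 5.73 in the untreated and 4.37 and 4.48 in the irradiated miR-21+/+ arrays, 4.74 and 5.07 in the untreated and 4.52 and 3.97 in the irradiated miR-21-/- arrays. The radiation difference was -1.36 in miR-21+/+ tumors (95% interval -1.89 to -0.83, adjusted p = 0.0881), with all 9 probe sets lower, and -0.66 in miR-21-/- tumors (adjusted p = 0.385). Irradiated tumors of the 2 genotypes overlapped through the adipocyte-rich array, which read 4.52. Their difference was -0.18, or -0.46 without that array.

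Rad51c, a paralog of the recombinase, showed another pattern. Its levels were 5.72 and 5.46 in the untreated miR-21+/+ arrays, 5.17 and 5.83 in the irradiated miR-21+/+ arrays, 5.40 and 5.57 in the untreated miR-21-/- arrays, and 4.61 and 4.49 in the irradiated miR-21-/- arrays. The last group alone stood below the rest. The difference was -0.95 from irradiated miR-21+/+ tumors (adjusted p = 0.164) and -0.94 from untreated miR-21-/- tumors (adjusted p = 0.289), and it was -1.01 from irradiated miR-21+/+ tumors without the adipocyte-rich array. Rad51b and Xrcc3, paralogs as well, had differences of -0.20 and 0.07 between irradiated genotypes, each with overlapping arrays, and of 0.05 and -0.03 without that array.

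Blm, a helicase that resolves recombination intermediates, read 7.06 and 6.67 in the untreated and 5.96 and 6.16 in the irradiated miR-21+/+ arrays, 5.76 and 5.74 in the untreated and 4.9 and 5.51 in the irradiated miR-21-/- arrays. As for Brca1, no groups overlapped. The genotype difference was -1.12 in untreated (adjusted p = 0.116), against -0.86 in irradiated tumors (adjusted p = 0.205), or -0.55 without the adipocyte-rich array (adjusted p = 0.311). All 23 probe sets were lower in untreated miR-21-/- than miR-21+/+ tumors.

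Exo1, the nuclease that extends the trimming of ends and also acts in mismatch repair, read 7.25 and 6.54 in the untreated and 5.85 and 6.01 in the irradiated miR-21+/+ arrays, 5.96 and 5.80 in the untreated and 5.0 and 5.32 in the irradiated miR-21-/- arrays. Its genotype difference in untreated tumors was -1.01 (adjusted p = 0.156) and -0.66 without the first untreated miR-21+/+ array, short of the thresholds of the study. Mre11a, Rad50 and Nbn form the complex that first binds the ends. Their genotype differences in irradiated tumors were -0.04, -0.34 and 0.13, all with overlapping arrays, and each turned sign without the adipocyte-rich array, to 0.15, 0.04 and -0.15. None of the 3 passed either threshold in any of the 7 comparisons.

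Over the 15 measured recombination genes, the log2 fold change was below 0 in all 15 for miR-21-/- against miR-21+/+ untreated tumors and in all 15 for radiation in miR-21+/+ tumors, against 46.6% and 49.8% of all genes. Their medians were -0.58 and -0.47. Between irradiated genotypes 13 of 15 were below 0, against 50.4% of all genes, with a median of -0.38. For radiation in miR-21-/- tumors 12 of 15 were, against 54.9%, with a median of -0.24, which was -0.06 without the adipocyte-rich array.

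**Figure D3:**
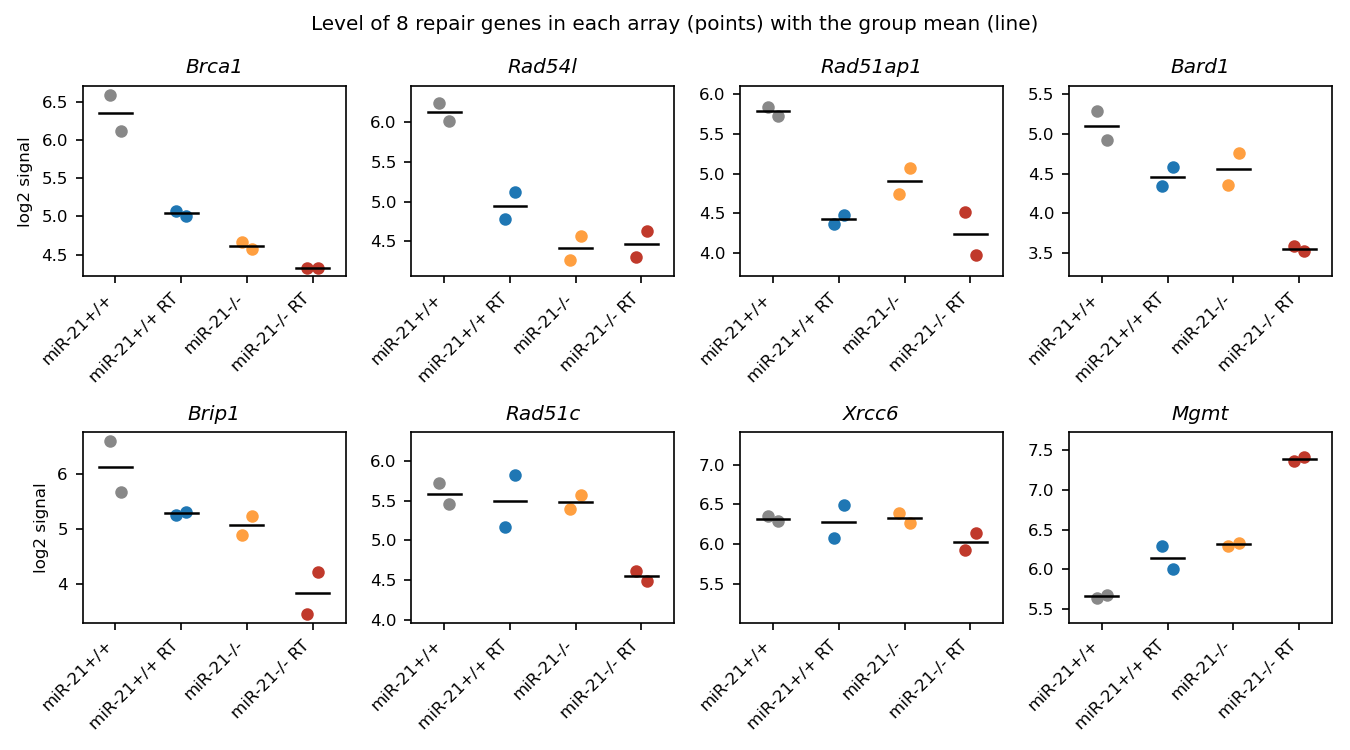
Log2 levels of repair genes in each array (points, 2 per group) with the group means (lines), for 8 genes. Brca1 and Rad54l have their highest points in the untreated miR-21+/+ group, and Mgmt has its highest, 7.36 and 7.41, in the irradiated miR-21-/- group.

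The Fanconi anemia genes repair crosslinked DNA together with the recombination proteins. Of the 4, Brip1 alone passed the thresholds of the study between genotypes, in untreated and in irradiated tumors, and none passed the adjusted threshold in either. Fanca, of the core complex, read 6.52 and 6.29 in the untreated and 5.87 and 5.94 in the irradiated miR-21+/+ arrays, 5.68 and 5.58 in the untreated and 4.99 and 4.94 in the irradiated miR-21-/- arrays. No groups overlapped, and the genotype difference was -0.77 in untreated (adjusted p = 0.111), against -0.95 in irradiated tumors (adjusted p = 0.0703). Averaged over both treatments it was -0.86 with an adjusted p of 0.0158, although the brightest of its 32 probe sets gave 0.48.

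Fanci, one of the paired proteins that the core complex marks on chromatin, read 5.99 and 5.32 in the untreated and 5.26 and 5.21 in the irradiated miR-21+/+ arrays, 4.75 and 4.83 in the untreated and 4.14 and 4.33 in the irradiated miR-21-/- arrays. Every miR-21-/- array was below every miR-21+/+ array. The difference was -0.86 in untreated (adjusted p = 0.178), against -1.0 in irradiated tumors (adjusted p = 0.142), and 34 of 36 probe sets were lower in the latter. Fancd2, its partner, had differences of -0.96 and -0.81 (adjusted p = 0.184 and 0.254), and the latter was -0.45 without the adipocyte-rich array (adjusted p = 0.42).

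Brip1, the helicase that binds BRCA1, read 6.59 and 5.67 in the untreated and 5.26 and 5.31 in the irradiated miR-21+/+ arrays, 4.90 and 5.24 in the untreated and 3.46 and 4.23 in the irradiated miR-21-/- arrays. The irradiated miR-21-/- arrays were the lowest and differed from each other by more than any other pair except the untreated miR-21+/+ arrays. The genotype difference was -1.44 in irradiated tumors (95% interval -2.27 to -0.61, adjusted p = 0.153), against -1.06 in untreated tumors (adjusted p = 0.259). It was -1.06 in irradiated tumors without the adipocyte-rich array, and -0.60 in untreated tumors without the first untreated miR-21+/+ array, where it no longer passed. The median of the 4 Fanconi genes was -0.97 between irradiated and -0.91 between untreated genotypes. Without the adipocyte-rich array the former was -0.94.

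Among the checkpoint kinases, Chek1, which halts the cycle at damaged or stalled replication forks, was lower without overlap in each of the 4 comparisons, with log2 differences of -0.73 between untreated genotypes, -0.67 between irradiated genotypes, -0.84 for radiation in miR-21+/+ tumors and -0.78 for radiation in miR-21-/- tumors. None passed either threshold (adjusted p of 0.244 to 0.35). Atm and Atr, the kinases that sense breaks and single-stranded DNA, differed between irradiated genotypes by -0.06 and 0.04, and Atr by 0.12 without the adipocyte-rich array. Chek2, the kinase downstream of Atm, differed by -0.69 with overlapping arrays, and by -0.14 without that array.

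End joining genes had medians near 0. Xrcc5 and Xrcc6 form the ring that caps the ends, Prkdc is the kinase it recruits, Xrcc4 and Lig4 seal the break, and Trp53bp1 protects ends from trimming. The median of the 6 was -0.08 between irradiated and -0.02 between untreated genotypes, -0.02 for radiation in miR-21+/+ tumors, and -0.14 for radiation in miR-21-/- tumors, which was -0.03 without the adipocyte-rich array. Their single differences ran from -0.50 to 0.42 over the 4 comparisons, and none had an unadjusted p under 0.05 in any of them. This does not show that they were unaltered, since the interval of Xrcc5 between irradiated genotypes, for example, ran from -1.17 to 0.16. Without the adipocyte-rich array, Xrcc5 differed by -0.18 and Trp53bp1 by 0.49 (adjusted p = 0.281) between irradiated genotypes.

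In single-strand break repair, Parp1, which senses nicks, read 8.18 and 7.79 in the untreated and 7.13 and 7.43 in the irradiated miR-21+/+ arrays, 7.73 and 7.69 in the untreated and 7.44 and 7.42 in the irradiated miR-21-/- arrays. Irradiated arrays were below untreated arrays in both genotypes, with -0.70 in miR-21+/+ (adjusted p = 0.317), against -0.28 in miR-21-/- tumors (adjusted p = 0.62). Xrcc1, the scaffold of the pathway, read 6.56 and 6.32, then 6.36 and 6.64, in the untreated and irradiated miR-21+/+ arrays, and 6.23 and 6.58, then 6.38 and 6.73, in the untreated and irradiated miR-21-/- arrays. Its 4 groups overlapped throughout.

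For mismatch repair, Msh6, which recognizes the mispair, read 6.79 and 6.47 in the untreated and 5.83 and 6.13 in the irradiated miR-21+/+ arrays, 6.17 and 6.13 in the untreated and 6.03 and 6.35 in the irradiated miR-21-/- arrays. The untreated miR-21+/+ arrays were above the other 6. The radiation difference in miR-21+/+ tumors was -0.65 (adjusted p = 0.375) and the genotype difference in untreated tumors -0.48 (adjusted p = 0.385). Pms2, part of the nicking complex, read 6.55 and 6.2, then 6.0 and 6.39, in the untreated and irradiated miR-21+/+ arrays, and 5.93 and 6.19, then 5.35 and 5.81, in the untreated and irradiated miR-21-/- arrays. It differed by -0.62 between irradiated genotypes (adjusted p = 0.332), and by -0.39 without the adipocyte-rich array.

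Mgmt, the single gene of direct reversal, ran opposite to the recombination genes. It read 5.64 and 5.68 in the untreated miR-21+/+ arrays, 6.29 and 6.0 in the irradiated miR-21+/+ arrays, 6.30 and 6.33 in the untreated miR-21-/- arrays, and 7.36 and 7.41 in the irradiated miR-21-/- arrays. Untreated miR-21+/+ arrays were below all others and irradiated miR-21-/- arrays above all others. The difference between irradiated genotypes was 1.24 (95% interval 0.85 to 1.64, adjusted p = 0.0389), and all 6 probe sets were higher, by 0.48 to 1.49. Radiation went with 1.07 in miR-21-/- (adjusted p = 0.126), against 0.48 in miR-21+/+ tumors (adjusted p = 0.436), and the untreated genotypes differed by 0.66 (adjusted p = 0.159).

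The Mgmt difference between irradiated genotypes was 1.26 without the array rich in adipocyte markers (adjusted p = 0.0274). The mean of the macrophage markers was also highest in the irradiated miR-21-/- arrays. Not all of these markers shared this, since 2 of the 9 were lower between irradiated genotypes, or 3 without the adipocyte-rich array. Their mean over 9 genes was 0.68 and 0.42 in the irradiated miR-21-/- arrays, against -0.60 and -0.59 in the untreated miR-21-/- and -0.23 to 0.3 in the miR-21+/+ arrays, and their part in the Mgmt difference was not tested. The adjusted call was lost, at values of 1.10 to 1.39 with adjusted p of 0.0884 to 0.263, on leaving out any single array other than the irradiated miR-21-/- arrays. The brightest probe set gave 0.48 (adjusted p = 0.696).

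Averaged over both treatments, the genotype effect had more adjusted calls than either treatment alone. Brca1 (-1.22, adjusted p = 0.0103), Fanca, Rad54l (-1.10, adjusted p = 0.017), Blm (-0.99, adjusted p = 0.0362), Fanci (-0.93, adjusted p = 0.0378) and Rad54b (-0.75, adjusted p = 0.0462) were lower, and Mgmt was higher (0.95, adjusted p = 0.0125). That is 6 lower and 1 higher of 34, against 1.98% and 0.359% of all genes. Past the thresholds of the study were Brip1 (-1.25), Brca1 and Rad54l, 3 of 34 against 1.47% of all genes, and none was higher, against 0.488%. With 1 array left out the adjusted count ran from 0 to 15, the last without the second irradiated miR-21-/- array, where 8.41% of all genes were lower and 7.14% higher. Without the adipocyte-rich array it was 12, 11 of them lower, against 4.22% of all genes. It was 0 without the first untreated miR-21+/+ array, without either irradiated miR-21+/+ array and without either untreated miR-21-/- array. Averaged over the genotypes, radiation went with Brip1 (-1.04) and Rad51ap1 (-1.01) past the thresholds of the study, 2 of 34 against 0.549% of all genes, and none was higher, against 0.587%. Neither passed them without the first untreated miR-21+/+ array or without the second untreated miR-21-/- array, and Brip1 did not without the adipocyte-rich array (-0.84). Neither passed the adjusted threshold, at which 0.173% of all genes were lower and 0.134% higher. Rad51ap1, Brca1 and Mgmt gained adjusted calls without the adipocyte-rich array, with values of -1.15, -0.80 and 0.79. More of all genes were called then too, and only 1 irradiated miR-21-/- array was left.

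Whether radiation acted differently in the genotypes was tested by the interaction, the radiation difference in miR-21-/- minus that in miR-21+/+ tumors. Rad54l (1.23, 95% interval 0.51 to 1.95, adjusted p = 0.354) and Brca1 (1.03, 95% interval 0.37 to 1.69, adjusted p = 0.438) passed the thresholds of the study, 2 of 34 higher against 1.66% of all genes, and none was lower, against 2.25%. No repair gene passed the adjusted threshold, at which 0.00432% of all genes were lower and 0.0% higher. In untreated miR-21-/- tumors Rad54l and Brca1 had means of 4.42 and 4.61, below the median gene levels of the arrays (5.08 to 5.16). Whether levels this low left room for a further fall was not tested. Leaving out the second irradiated miR-21-/- array gave 5 genes, 2 lower and 3 higher, against 6.12% and 7.19% of all genes, and leaving out the second untreated miR-21-/- array, the second irradiated miR-21+/+ array or the first untreated miR-21+/+ array gave 1. At these thresholds or the adjusted p, the Brca1 call held in 9 of 16 alternative settings and the Rad54l call in 14 of 16. Brca1 fell short, for example, without the first untreated miR-21+/+ array, with 0.78. For Mgmt the interaction was 0.59 (adjusted p = 0.602) and for Rad51c -0.85 (adjusted p = 0.602).

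Further genes of these roles and of base excision repair, nucleotide excision repair and translesion synthesis were then read, 114 genes of which 109 were measured. Between untreated genotypes 5 of the 109 were lower past the thresholds of the study and none higher, against 2.16% and 0.955% of all genes, and their median was -0.18. Between irradiated genotypes 4 were lower and none higher, against 2.63% and 1.33% of all genes, with a median of -0.20, which was -0.11 without the adipocyte-rich array. Radiation went with 1 higher gene in miR-21+/+ tumors, against 1.16% of all genes, and 1 lower in miR-21-/- tumors, against 1.33%, so that these counts and the irradiated one were near those of all genes. Averaged over treatments, 5 of the 109 passed the adjusted threshold, all lower, against 1.98% of all genes: Eme1, Polq, Neil3, Topbp1 and Rad18. Without the adipocyte-rich array further genes of these lists passed it, not all of them lower, and so did more of all genes. The median of this effect over the 109 genes was -0.20 with and -0.14 without that array. Among the 28 other recombination genes, Eme1, a subunit of a junction-cutting nuclease, was the 1 gene of these lists past the adjusted threshold between untreated genotypes (-1.32, adjusted p = 0.0406). Fignl1, which acts on the recombinase in mouse cells, differed by -0.64 (adjusted p = 0.204). For 12 other end joining genes the median was 0.04 between untreated and -0.27 between irradiated genotypes, or -0.05 without the adipocyte-rich array. Polq, the polymerase of the alternative end joining route, differed by -1.07 between untreated genotypes (adjusted p = 0.116) and was named, like the genes in the next sentence, after its values were seen. The others past the thresholds of the study were Mms22l (-1.12), Neil3 (-1.06) and Tipin (-1.05) between untreated genotypes, and Brcc3 (-1.30), Mms22l (-1.10), Polh (-1.10) and Cetn2 (-1.09) between irradiated genotypes, where Mms22l no longer passed without that array (-0.57). Brcc3 rose with radiation in miR-21+/+ tumors (1.07), and Polh, the polymerase that passes ultraviolet lesions, fell with radiation in miR-21-/- tumors (-1.11). The 2 other direct reversal genes did not share the direction of Mgmt between untreated genotypes. Alkbh3 differed by -0.73 (adjusted p = 0.116) and Alkbh2 by -0.37 (adjusted p = 0.429), and between irradiated genotypes by 0.01 and -0.37, or 0.05 and -0.48 without the adipocyte-rich array.

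Proliferation markers were likewise highest in untreated miR-21+/+ and lowest in irradiated miR-21-/- tumors. The mean of 19 G2 and mitosis genes, relative to all arrays, was 1.33 and 0.89 in the untreated and 0.31 and 0.20 in the irradiated miR-21+/+ arrays, -0.30 and -0.21 in the untreated and -1.19 and -1.03 in the irradiated miR-21-/- arrays. For 23 S phase genes it was 1.03 and 0.59, then -0.18 and 0.15, in the untreated and irradiated miR-21+/+ arrays, and -0.18 and -0.14, then -0.67 and -0.60, in the untreated and irradiated miR-21-/- arrays. For the 15 recombination genes it was 0.77 and 0.43, then -0.10 and 0.07, and -0.17 and -0.09, then -0.52 and -0.39, in the same order of arrays. The first untreated miR-21+/+ array was highest in all 3 lists, and the part of proliferation in the differences of the repair genes was not tested. The median of the mitosis genes was -1.37 between genotypes in untreated and in irradiated tumors, with all 19 lower without overlap in each. The 13 measured p53 targets, a sign of the response to radiation, had medians of 0.50 in miR-21+/+ and 0.77 in miR-21-/- irradiated against untreated tumors, with 12 and 13 of them above 0, and the latter median was 1.24 without the adipocyte-rich array.

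**Figure D4:**
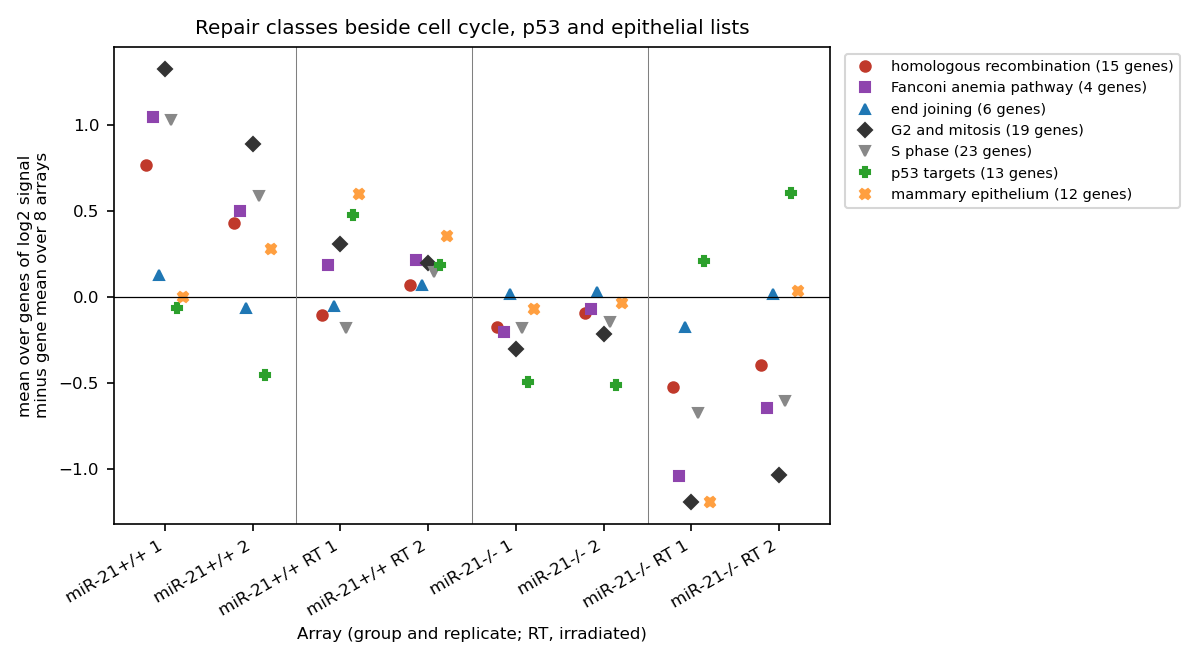
Mean log2 level of gene lists in each array relative to the mean of all 8 arrays, for 3 repair roles, mitosis, S phase, p53 targets and mammary epithelium. Homologous recombination, S phase and mitosis genes share their highest array, the first untreated miR-21+/+ array, end joining genes stay between -0.17 and 0.13, and the epithelial list is lowest, at -1.19, in the first irradiated miR-21-/- array.

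The deleted gene lies on chromosome 11, as do 4 of the measured repair genes. In the RefSeq gene order of GRCm38.p6, Brip1 is separated from Mir21a by 6 protein-coding genes and Rad51c by 10, both within 2 Mb and on opposite sides, whereas Brca1 and Rad50 are 317 and 586 protein-coding genes away. Brip1 and Rad51c were among the 4 lowest repair genes between irradiated genotypes, and Rad51c differed by -0.11 between untreated genotypes (adjusted p = 0.912). Their position and the genotype cannot be told apart in these arrays.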

How the data were processed

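RNA of untreated and irradiated tumors was measured on 8 Affymetrix Mouse Gene 2.0 ST arrays, grouped by the sample labels. The authors deposited log2 values of exon-level probe sets, after RMA had corrected the background, equalized the distributions of the arrays and summarized the probes by median polish. The submitters' processing notes name Affymetrix Expression Console 1.4 and, for comparisons, Transcriptome Analysis Console 3.1. The genome build is not given in the sources used here.

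Of 269751 probe sets, 233753 were annotated with 1 gene symbol, 5139 with several and 30859 with none, and only the first kind was used. Averaging on the log2 scale gave 1 level per gene for 23152 genes, each resting on a median of 8 probe sets, which could disagree. All 8 arrays entered 1 fit in limma 3.58.1 (lmFit, eBayes; R 4.3.3) with a mean per group (residual degrees of freedom 4, prior 3.54), and p-values were adjusted over all genes (Benjamini-Hochberg). The 7 comparisons were the genotypes in untreated and in irradiated tumors, radiation in each genotype, the interaction and both mean effects. The study's thresholds, at least a 2-fold change and p below 0.05 before adjustment, were counted beside the adjusted p. The fit was tested on simulated data. Tables and figures were made in Python 3.11.15 (numpy 2.4.6, pandas 2.3.3, matplotlib 3.10.9).

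The repair genes, their roles and the 9 wider and 13 marker lists were chosen with earlier results of these data known, so that no count over them is independent evidence. Array values were given for genes past a threshold in any comparison, for mismatch, single-strand break and direct reversal genes, and for genes within 2 Mb of Mir21a. Of the wider lists, the 2 genes with the smallest p could be named. Sequences were those of RefSeq (GRCm38.p6). The alternatives were a replicate block, array weights, unmoderated variances, a robust trended prior, a fit of only the 4 arrays compared, a filter that kept genes with a level over the median, centring of each array, quantile normalization of gene levels, the median or the brightest of a gene's probe sets, and the omission of each array in turn, in which the lone array left in a group was taken to vary as the remaining groups did.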

Additional observations from a re-analysis of the deposited data

How the results depend on the processing

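The counts of repair genes rest on 2 arrays a group, and arrays have no read depth, so that their number sets the limit. Of 4133 single-gene values under all alternatives, 248 changed sign, 7 of them past a threshold with or without the change of setting. A call at the study's thresholds was lost in 47 and gained in 66, and a call at the adjusted p was lost in 92 and gained in 90. Of the medians over roles, 900 moved by less than the spread between replicates and 84 by more. Of the counts, 164 stayed within 1.5 times and 82 did not. The causes of these shifts were not tested, apart from the filter, which tests fewer genes, and left-out arrays. The comparison on 4 arrays alone is not defined for the interaction and the mean effects.

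Counts at the study's thresholds, then at the adjusted p, ranged as follows with 1 array left out. They were 2 to 6 and 0 to 9 between irradiated genotypes, 2 to 8 and 0 to 8 between untreated genotypes, 3 to 8 and 0 to 4 for radiation in miR-21+/+ tumors, and 1 to 4 and 0 to 7 for radiation in miR-21-/- tumors. They were 1 to 5 and 0 to 1 for the interaction, 3 to 6 and 0 to 15 for the mean genotype effect and 0 to 3 and 0 to 12 for the mean radiation effect.

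With the replicate number as a block, the adjusted count was 0 between irradiated genotypes, 1 between untreated genotypes and 4 for the mean genotype effect, and no other count moved by over 1.5 times. The deviations of same-numbered arrays correlated at -0.133 to 0.042, which gives no sign of a pairing. With 2 arrays a group, this cannot exclude a pairing of small effect.

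Of the 34 repair genes, 27 lay above the median level and were tested under that filter. Brca1, Rad54l, Rad54b, Brip1 and Rad51ap1 were not among them, so that their calls could not be counted. The counts at the study's thresholds were 1 between irradiated genotypes, 2 between untreated genotypes and 0 for radiation in miR-21+/+ tumors. They were 1 for radiation in miR-21-/- tumors, and 0 for the interaction, the mean genotype and the mean radiation effect. The adjusted counts were then 2 between irradiated genotypes, 0 between untreated genotypes and 1 for the mean radiation effect.

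The median of the probe sets gave 4 genes at the study's thresholds between irradiated genotypes, and adjusted counts of 0 between irradiated genotypes, 0 between untreated genotypes and 4 for the mean genotype effect. The brightest probe set gave 2 genes for radiation in miR-21+/+ tumors, 1 for the interaction and 1 for the mean radiation effect at the study's thresholds, and adjusted counts of 0 between irradiated genotypes, 0 between untreated genotypes and 0 for the mean genotype effect. It also turned the sign of Brip1 between irradiated genotypes (0.34), for radiation in miR-21-/- tumors (0.11) and in the mean genotype effect (0.12), of Rad54l for radiation in miR-21-/- tumors (-1.29) and in the interaction (-0.06), of Mgmt for radiation in miR-21-/- tumors (-0.05) and of Fanca in the mean genotype effect (0.48).

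Quantile normalization gave 4 genes for radiation in miR-21-/- tumors and 1 for the interaction, and centring 1 for the interaction. Without moderation of the variances the adjusted counts were 0 between irradiated genotypes, 0 between untreated genotypes and 0 for the mean genotype effect. On the 4 arrays alone they were 0 between irradiated genotypes, 7 between untreated genotypes and 2 for radiation in miR-21+/+ tumors. Of all 23152 genes, 762 were then lower and 448 higher between untreated genotypes. For radiation in miR-21+/+ tumors 96 of all genes were lower and 133 higher. Array weights gave 0 between irradiated genotypes, 8 between untreated genotypes, 4 for radiation in miR-21+/+ tumors and 1 for the mean radiation effect. Of all genes, 629 were then lower and 315 higher between untreated genotypes. For radiation in miR-21+/+ tumors 153 were lower and 170 higher, and for the mean radiation effect 54 and 40. Both arrays of a group received the same weight, 0.4029 in irradiated miR-21-/- tumors. This setting therefore could not set the adipocyte-rich array apart from its partner.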
